A study of Mus musculus with 12 samples.

Results

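Interferon regulatory factors were followed through myocardial infarction in whole mouse hearts. The members were taken by symbol alone, *Irf1* to *Irf5* and *Irf7* to *Irf9*, which gave 8 of the 53801 genes in the deposited tables. All 8 passed the filter on low counts and stand among the 15306 genes tested.

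Interferon regulatory factors are transcription factors that share a tryptophan-rich DNA-binding domain and bind GAAA repeats in interferon-stimulated response elements (ISREs). *Irf3* and *Irf7* are switched on by TBK1 and IKKε downstream of nucleic acid sensors and drive interferon genes, and *Irf9* is the DNA-binding subunit of ISGF3, the complex that reads the ISREs of interferon-stimulated genes. *Irf5* acts downstream of Toll-like receptors, *Irf4* and *Irf8* pair with the Ets factor PU.1 in lymphoid and myeloid cells, and *Irf1* activates and *Irf2* opposes transcription at shared sites. In the infarcted heart, interferon signalling is best known from cardiac macrophages that take up nucleic acids of dying cells.

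RNA was taken from hearts of C57BL/6N mice after sham surgery (sham) or after acute myocardial infarction, at 1 day (day 1 AMI) or 7 days (day 7 AMI), with 4 hearts a group and 12 in all. Infarction was made under isoflurane by tying off the left anterior descending artery through a thoracotomy, and no engineered allele is named for any group. The day on which sham hearts were taken is not stated for each sample. Whole hearts were sequenced, so infarct, border and remote myocardium are mixed in every library, and fewer cells of a type and less RNA per cell cannot be told apart.

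The libraries held 23204551 to 32166517 counts, and the mitochondrial share ran from 17.9% to 27.4% of counts in sham, 12.1% to 15.9% in day 1 AMI and 13.2% to 19.2% in day 7 AMI. Cardiac identity was plain from 9 cardiomyocyte markers, whose summed level was at least 41710 CPM in every heart. Sham replicate 2 stood apart in erythroid genes, with a summed 4450 CPM against 491 to 1178 CPM in the other sham hearts. All levels called CPM are TMM-normalized CPM, that is counts scaled by library total and by a factor that lines up the libraries on the bulk of their genes.

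Upstream sequence is shown for *Irf1*, *Irf2* and *Irf8*, the genes with a match, and for *Irf5*, with matches to 4 motifs in capitals. The windows are those of RefSeq on GRCm38.p6, 11 for the 8 genes, and cover the 250 bases before each transcription start. The motifs were the ISRE core (GAAA, any 2 bases, GAAA), the STAT-binding GAS element TTCNNNGAA, the Ets-IRF composite element (GGAA, any 2 bases, GAAA), which can overlap the ISRE core, and the kappaB site, each searched on both strands from 250 bases before to 50 bases after the start. Of 32851 mouse windows, 3.44% held the ISRE core, 8.3% the GAS element, 2.72% the composite element and 4.51% a kappaB site.
Irf1, chr11:53769764-53770013, plus strand, with a GAS match and a kappaB match: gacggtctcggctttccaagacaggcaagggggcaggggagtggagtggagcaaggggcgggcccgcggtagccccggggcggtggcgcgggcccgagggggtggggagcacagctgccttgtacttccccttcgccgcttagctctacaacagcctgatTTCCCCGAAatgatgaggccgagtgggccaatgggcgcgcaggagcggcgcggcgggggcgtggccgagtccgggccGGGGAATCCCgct
Irf8, chr8:120736108-120736357, plus strand, with 2 GAS matches: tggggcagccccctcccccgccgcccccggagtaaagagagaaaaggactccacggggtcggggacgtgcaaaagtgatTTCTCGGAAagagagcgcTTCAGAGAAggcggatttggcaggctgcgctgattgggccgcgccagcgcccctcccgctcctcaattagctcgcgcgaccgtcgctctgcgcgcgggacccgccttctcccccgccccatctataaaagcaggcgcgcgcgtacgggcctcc
Irf2, chr8:46739495-46739544, plus strand, with a composite element that runs into an ISRE core and then a GAS match: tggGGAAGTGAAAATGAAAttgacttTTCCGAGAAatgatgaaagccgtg
Irf5, chr6:29526375-29526624, plus strand, with no match: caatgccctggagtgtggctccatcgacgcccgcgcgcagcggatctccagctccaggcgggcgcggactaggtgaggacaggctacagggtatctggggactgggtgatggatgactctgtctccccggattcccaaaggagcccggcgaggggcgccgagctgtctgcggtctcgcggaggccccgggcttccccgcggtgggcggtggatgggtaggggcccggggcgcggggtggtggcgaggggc

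*Irf1*, *Irf2* and *Irf8* were the genes of the family with any match. In *Irf1* the GAS match stood at bases -90 to -82 from the start and the kappaB match at -13 to -4, and in *Irf8* the GAS matches stood at -171 to -163 and -153 to -145. The *Irf2* window also held a kappaB match at -17 to -8, outside the stretch shown. A further window of *Irf1* and of *Irf8*, at a later start, held no match. The windows of *Irf3*, *Irf4*, *Irf5*, *Irf7* and *Irf9* held no such letters, which says nothing of the factors that bind there. For *Irf9* the starts used lay 414 and 1008 bases inside the gene's 5' end in GENCODE M21, so the sequence before that end was not searched. A match is a description and not a tested site.

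The question for each gene was whether its level differed between sham hearts and hearts at day 1 or day 7 AMI. *Irf5*, *Irf7*, *Irf8* and *Irf9* rose by day 1 AMI, and these 4 together with *Irf1* and *Irf2* were higher at day 7 AMI than in sham. *Irf5* stood at nearly the same level at both times, *Irf7* and *Irf8* rose further from day 1 to day 7, and no member fell in any of the 3 comparisons. A gene was called changed when the false discovery rate (FDR) of the edgeR quasi-likelihood test was below 0.05, and a differentially expressed gene (DEG) also differed by 2-fold or more.

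At day 1 AMI 4 of the 8 genes were above sham, where 22.0% of all genes tested were called higher, and 0 were below it, where 19.9% of all genes were. *Irf5* and *Irf8* were DEGs, against 7.79% of all genes higher by that rule. The hearts of *Irf5*, *Irf7* and *Irf8* lay above all sham hearts, as did those of 19.6% of all genes. At day 7 AMI 6 of the 8 were above sham and 0 below, beside 30.9% and 28.4% of all genes, and *Irf5*, *Irf7* and *Irf8* were DEGs, beside 15.3%. In 5 members, *Irf2*, *Irf5*, *Irf7*, *Irf8* and *Irf9*, every heart at day 7 exceeded every sham heart, beside 28.3% of all genes. Between the infarcted groups 3 members were higher at day 7, *Irf2*, *Irf7* and *Irf8*, and 0 lower, beside 24.2% and 22.8% of all genes. None of these 3 was a DEG, beside 8.55% of all genes, and *Irf2* and *Irf7* had no overlap, beside 23.5%. The median log2 fold change of the 8 genes was 0.43, 0.66 and 0.29 in day 1 against sham, day 7 against sham and day 7 against day 1, and that of all genes tested was -0.01, 0.03 and 0.02.

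**Figure D1:**
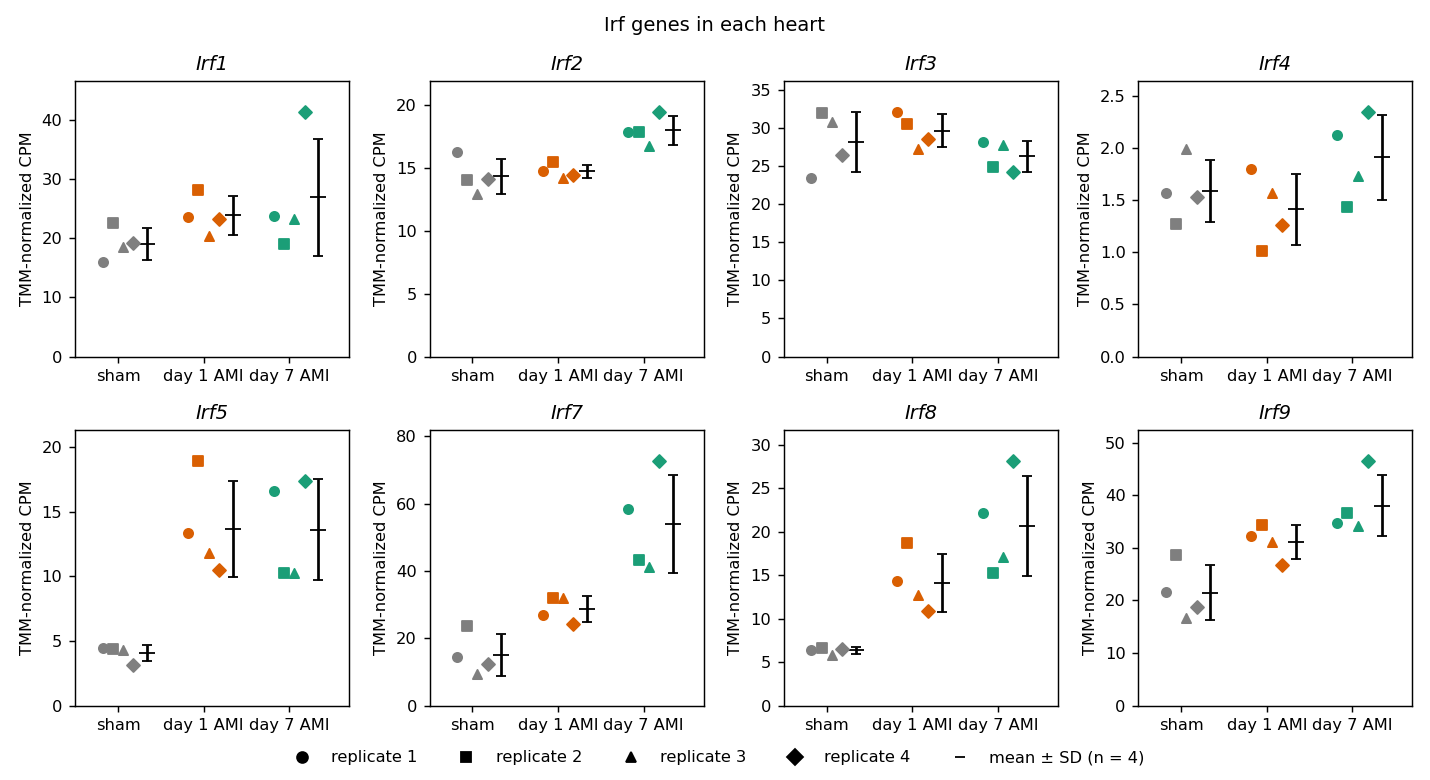
TMM-normalized CPM (linear axes from 0) of each *Irf* gene in each heart of the 3 groups, with the symbol marking the replicate number and the bar the mean and SD of 4 hearts. The sham hearts of *Irf5*, *Irf7* and *Irf8* lie below every infarcted heart, and day 7 AMI replicate 4 is the highest heart of its group in 7 of the 8 panels.

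*Irf7*, the interferon-inducible regulator that amplifies interferon alpha production, rose at both times and between them. Its level was 14.5, 23.7, 9.31 and 12.2 CPM in sham replicates 1 to 4. In day 1 AMI it was 26.8, 32.1, 31.9 and 24.2 CPM, and in day 7 AMI 58.4, 43.3, 41.3 and 72.8 CPM. The 3 groups did not overlap, although sham replicate 2 came within 1 CPM of the lowest day 1 AMI heart. *Irf7* was 1.92-fold above sham at day 1 (log2 fold change 0.94, SE 0.24, edgeR adjusted p = 0.0073) and 3.60-fold above it at day 7 (1.85, SE 0.25, adjusted p = 2.05e-05). A further rise of 1.88-fold separated the infarcted groups (0.91, SE 0.24, adjusted p = 0.0061). Its call held in every setting tried, and without sham replicate 2 the day 1 log2 fold change was 1.26.

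*Irf3*, the constitutively made partner of *Irf7* in switching on interferon beta, was not called in any comparison of the same hearts. It ranged from 23.4 to 31.9 CPM in sham, from 27.3 to 32.1 CPM in day 1 AMI and from 24.2 to 28.2 CPM in day 7 AMI. The groups overlapped, with log2 fold changes against sham of 0.07 (95% interval -0.15 to 0.29) at day 1 and -0.10 (-0.32 to 0.12) at day 7, and neither passed the test (adjusted p = 0.60 and 0.42). The sign of the day 7 value turned to 0.29 when libraries were scaled by their totals alone.

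The balance of *Irf7* to *Irf3* was read within each heart as a ratio of counts, which no scaling of libraries can move. The ratio was 0.62, 0.74, 0.30 and 0.46 in sham, 0.83, 1.05, 1.17 and 0.85 in day 1 AMI, and 2.07, 1.74, 1.49 and 3.00 in day 7 AMI. Each group lay wholly above the one before it, and the ratio was 1.91-fold above sham at day 1, 3.97-fold above it at day 7, and 2.08-fold higher at day 7 than at day 1. All 3 differences reached p = 0.0286 in an exact two-sided permutation test, the smallest p that 4 against 4 hearts can give, or 0.049 adjusted over the 12 ratio tests run.

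*Irf5*, which carries Toll-like receptor signals to inflammatory cytokine genes, lies on chromosome 6 (GRCm38, 29526625 to 29541871). Its level was 4.43, 4.40, 4.32 and 3.11 CPM in the sham hearts. It was 13.4, 19.0, 11.8 and 10.5 CPM in day 1 AMI and 16.6, 10.2, 10.3 and 17.4 CPM in day 7 AMI. Every infarcted heart held more than 2 times the level of the highest sham heart, and the infarcted groups covered nearly the same range. *Irf5* was 3.36-fold higher in day 1 AMI (log2 fold change 1.75, SE 0.23, adjusted p = 8.20e-05) and 3.35-fold higher in day 7 AMI (1.74, SE 0.23, adjusted p = 1.75e-05). Day 7 did not pass the test against day 1 AMI, with a log2 difference of -0.0043 and a 95% interval from -0.45 to 0.45.

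The exons of *Irf5* share 411 bases, 14.1% of their length, with *Tnpo3* on the opposite strand, and the strand counted is not given in the sources used here. *Tnpo3*, a nuclear import receptor, averaged 66.6 CPM over the 12 hearts. Its log2 fold change was 0.05 in day 1 AMI (edgeR adjusted p = 0.56) and -0.23 in day 7 AMI (adjusted p = 0.011), on TMM scaling. The part of reads from *Tnpo3* in the counts of *Irf5* was not tested. The other family members share at most 3.4% of their exon bases with another gene.

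*Irf8*, the factor that directs monocyte and dendritic cell development, rose in steps. It stood at 6.42, 6.65, 5.82 and 6.55 CPM in sham, which was the tightest sham group of the genes that rose. It reached 14.3, 18.7, 12.7 and 10.9 CPM in day 1 AMI and 22.2, 15.2, 17.1 and 28.2 CPM in day 7 AMI. All infarcted hearts lay above all sham hearts, while the infarcted groups overlapped. The gene was 2.22-fold higher in day 1 AMI (log2 fold change 1.15, SE 0.20, adjusted p = 0.00049) and 3.25-fold higher in day 7 AMI (1.70, SE 0.20, adjusted p = 5.95e-06). Without day 1 AMI replicate 2 the day 1 log2 fold change was 0.99, just under 2-fold.

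The further rise of *Irf8* from day 1 to day 7 was 1.46-fold (0.55, SE 0.19, adjusted p = 0.026) and rested on single hearts. It no longer passed without day 1 AMI replicate 1 (adjusted p = 0.051), replicate 3 (0.068) or replicate 4 (0.081), or without day 7 AMI replicate 1 (0.058) or replicate 4 (0.11).

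*Irf4*, the relative of *Irf8* that serves plasma cells, T cells and alternatively activated macrophages, was low, with 30 to 69 counts a heart. It lay between 1.27 and 1.99 CPM in sham, 1.01 and 1.80 CPM in day 1 AMI, and 1.43 and 2.35 CPM in day 7 AMI. The groups overlapped, and the log2 fold changes of -0.17 at day 1 (95% interval -0.69 to 0.35) and 0.27 at day 7 (-0.24 to 0.78) did not pass the test.

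Set against *Irf4* within hearts, *Irf8* and *Irf5* were higher after infarction. The ratio of *Irf8* to *Irf4* was 4.05, 5.16, 2.90 and 4.23 in sham, 7.88, 18.2, 8.03 and 8.51 in day 1 AMI, and 10.4, 10.5, 9.78 and 11.9 in day 7 AMI. The ratio of *Irf5* to *Irf4* was 2.80, 3.41, 2.16 and 2.01 in sham, 7.38, 18.4, 7.45 and 8.24 in day 1 AMI, and 7.75, 7.08, 5.86 and 7.35 in day 7 AMI. Both ratios were higher in every infarcted heart than in every sham heart. The first was 2.49-fold higher at day 1 and 2.65-fold higher at day 7, the second 3.76-fold and 2.75-fold, each at the smallest exact permutation p of 0.0286 (adjusted 0.049). Neither differed by the test between day 1 and day 7 AMI (exact permutation p = 0.83 and 0.11). In day 1 AMI replicate 2, where both ratios were highest, *Irf4* was the lowest of that group and *Irf5* and *Irf8* the highest.

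**Figure D2:**
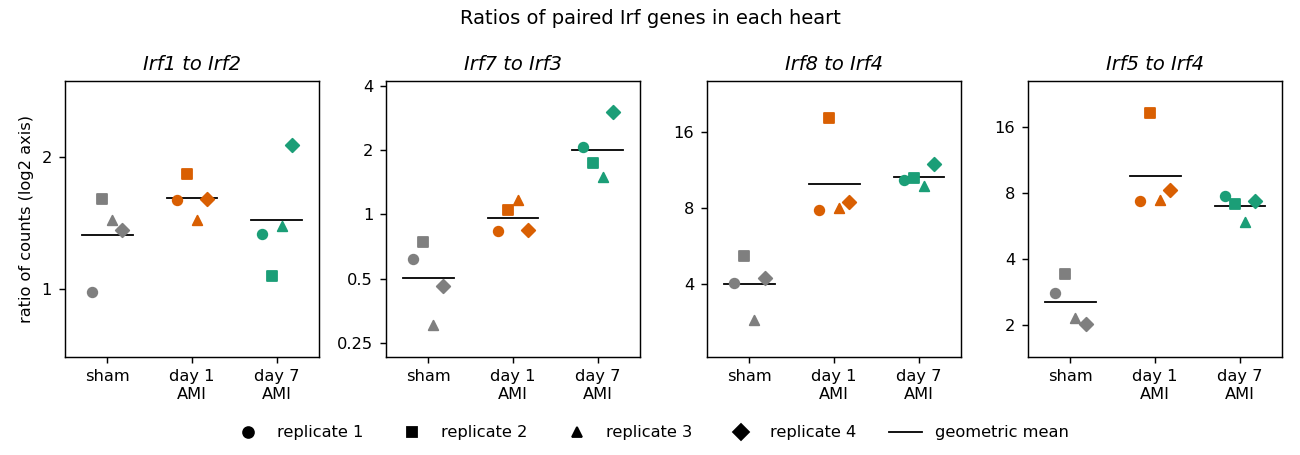
Ratio of counts of paired *Irf* genes in each heart (log2 axes), with the replicate number as the symbol and the geometric mean of 4 hearts as a line. *Irf7* to *Irf3* climbs through 3 groups that do not overlap, *Irf8* to *Irf4* and *Irf5* to *Irf4* separate sham from infarcted hearts, and *Irf1* to *Irf2* overlaps throughout.

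*Irf1*, an activator induced by interferon gamma through its GAS element, was called at day 7 AMI alone. Its level was 16.0, 22.6, 18.6 and 19.2 CPM in sham and 23.6, 28.3, 20.4 and 23.2 CPM in day 1 AMI. In day 7 AMI it was 23.9, 19.1, 23.2 and 41.4 CPM, and replicate 4 stood above the rest of that group. The log2 fold change was 0.32 in day 1 AMI (SE 0.20, adjusted p = 0.21) and 0.50 in day 7 AMI (SE 0.20, adjusted p = 0.044). The day 7 call was lost without that heart (0.21, adjusted p = 0.21), and also without sham replicate 1 (adjusted p = 0.12), replicate 3 (0.085) or replicate 4 (0.076).

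*Irf2*, named as the antagonist of *Irf1*, rose by day 7 AMI by a small amount. It was 16.3, 14.1, 12.9 and 14.1 CPM in sham, 14.8, 15.5, 14.2 and 14.5 CPM in day 1 AMI, and 17.9, 17.9, 16.8 and 19.5 CPM in day 7 AMI. Day 7 AMI lay above both other groups with no overlap, at 1.25-fold over sham (log2 fold change 0.33, SE 0.09, adjusted p = 0.0057) and 1.22-fold over day 1 AMI (0.29, SE 0.09, adjusted p = 0.015). The latter did not pass without day 7 AMI replicate 4 (0.25, adjusted p = 0.055). The ratio of *Irf1* to *Irf2* averaged 1.34 ± 0.26 over the sham hearts, 1.62 ± 0.16 at day 1 and 1.48 ± 0.45 at day 7 (SD, n = 4) and did not pass the exact permutation test in any comparison (p = 0.11, 0.71 and 0.46).

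*Irf9*, the interferon-responsive member that binds DNA within ISGF3, rose moderately. It stood at 21.7, 28.6, 16.6 and 18.8 CPM in sham, 32.3, 34.4, 31.1 and 26.7 CPM in day 1 AMI, and 34.7, 36.6, 34.2 and 46.6 CPM in day 7 AMI. Sham replicate 2 overlapped the day 1 AMI hearts, and no sham heart reached day 7 AMI. The rise was 1.45-fold at day 1 (log2 fold change 0.54, SE 0.15, adjusted p = 0.012) and 1.77-fold at day 7 (0.82, SE 0.15, adjusted p = 0.00035), while day 7 did not pass against day 1 AMI (0.29, adjusted p = 0.13).

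*Stat2*, a partner of *Irf9* in ISGF3, averaged 23.0 ± 5.21 CPM over the sham hearts, 29.4 ± 2.66 CPM at day 1 and 53.1 ± 16.8 CPM at day 7 (SD, n = 4). It did not pass the test at day 1 (adjusted p = 0.15) and was a DEG at day 7, at a log2 fold change of 1.21. Whether *Irf9* differed from *Stat2* in its day 1 change was not tested.

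**Figure D3:**
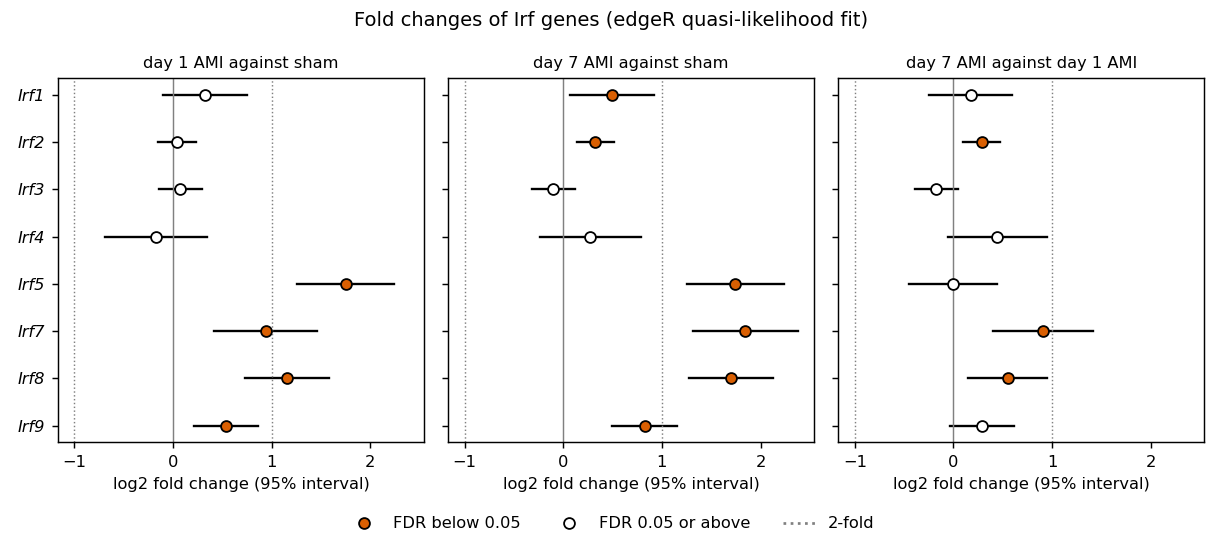
Log2 fold change of each *Irf* gene with its 95% interval in 3 comparisons of 4 hearts against 4, filled where the FDR is below 0.05, with dotted lines at 2-fold. *Irf5* is at 1.75 and 1.74 against sham and at 0 between the infarcted groups, whereas *Irf7* moves in all 3 panels. The sign of *Irf3* at day 7 and of *Irf5* between the infarcted groups depends on how libraries are scaled.

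Levels of different members can be set side by side in TPM, the RSEM estimate that accounts for transcript length. In sham *Irf3* was far the most abundant at 32.2 ± 6.88 TPM and lay above all others without overlap. *Irf1* (11.8 ± 2.26 TPM), *Irf9* (11.7 ± 4.04) and *Irf7* (10.2 ± 4.40) followed with overlapping ranges, then *Irf2* (7.36 ± 1.09), which overlapped *Irf7*. *Irf8* (2.67 ± 0.24) and *Irf5* (2.38 ± 0.44) overlapped each other, and *Irf4* (0.38 ± 0.07) was the lowest of the 8 (SD, n = 4).

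In day 1 AMI *Irf3* still led at 42.2 ± 4.78 TPM without overlap, and *Irf7* had moved to the next place at 24.3 ± 2.98 TPM, in overlap with *Irf9* at 20.7 ± 1.45 TPM. In day 7 AMI *Irf7* (54.8 ± 16.3 TPM) and *Irf3* (48.3 ± 2.19 TPM) overlapped at the top, with *Irf9* below them at 32.2 ± 8.88 TPM (SD, n = 4). *Irf4* stayed the lowest of the 8 in each heart.

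The make-up of the family turned accordingly. *Irf3* gave 41.1% ± 3.61 of the summed TPM of the 8 genes in sham hearts, 31.4% ± 2.82 at day 1 and 24.9% ± 4.48 at day 7 (SD, n = 4). *Irf7* gave 12.6% ± 2.63, 18.1% ± 2.12 and 27.1% ± 2.34. *Irf5* went from 3.07% to 7.41% and 5.65%, and *Irf8* from 3.46% to 5.80% and 6.67%. The shares of *Irf1* and *Irf2* were 15.1% and 9.48% in sham and 12.0% and 7.29% in day 7 AMI, and *Irf9* held between 14.7% and 16.1% of the mean total.

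The summed TPM of the 8 genes was 78.7 ± 17.8 for sham, 135 ± 11.9 at day 1 and 200 ± 42.7 at day 7 (SD, n = 4). TPM carries a shift of its own here, since on log2(TPM + 1) the median of all genes was 0.28 above sham in day 1 AMI and 0.48 above it in day 7 AMI. On that scale *Irf3* was 0.59 above sham at day 7 by limma (adjusted p = 0.0013), which is 0.11 above the median gene, where TMM-scaled counts gave -0.10. The part of the mitochondrial share in this shift was not tested.

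**Figure D4:**
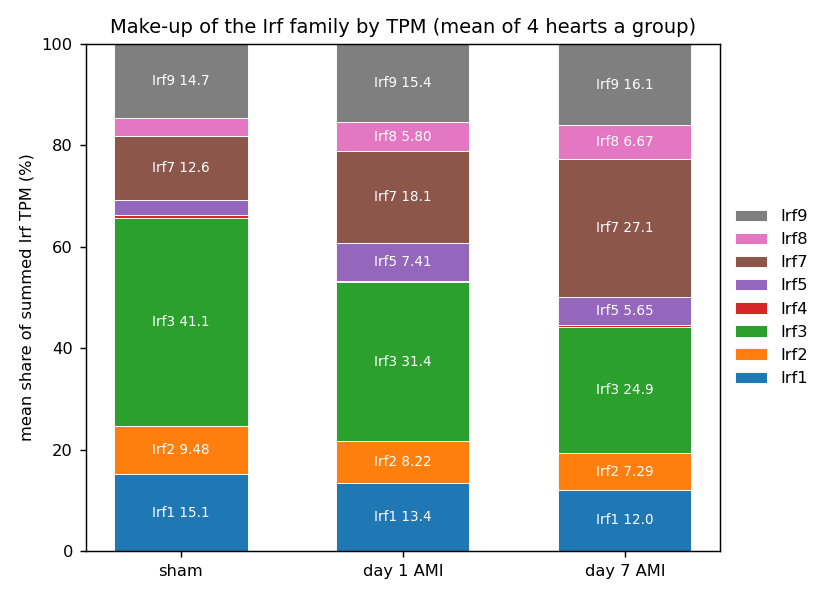
Mean share (%) of each *Irf* gene in the summed TPM of the 8 genes, with 4 hearts a group, with shares above 5% printed. *Irf3* shrinks from 41.1% to 24.9% as *Irf7* grows from 12.6% to 27.1%.

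The spread within groups was shared by many members. Day 7 AMI replicate 4 was the highest of its group for *Irf1*, *Irf2*, *Irf4*, *Irf5*, *Irf7*, *Irf8* and *Irf9*, and day 1 AMI replicate 2 for *Irf1*, *Irf2*, *Irf5*, *Irf7*, *Irf8* and *Irf9*. Sham replicate 2, the heart rich in erythroid genes, was highest for 5 members. Among sham hearts it was also highest in summed neutrophil markers, at 55.9 CPM against 30.5 CPM in replicate 1, the next heart. Its pan-leukocyte sum (137.5 CPM) and its monocyte and macrophage sum (496.9 CPM) were highest too, beside 131.2 and 439.5 CPM in replicate 1. Without sham replicate 2 the family had 4 genes called at day 1 and 6 at day 7 against sham, as with it. Without day 7 AMI replicate 4 there were 5 called against sham and 1, *Irf7*, against day 1 AMI.

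Pan-leukocyte markers and most monocyte and macrophage markers were above sham at both times, whereas neutrophil markers took another course. The summed level of 8 pan-leukocyte genes, among them *Ptprc* (CD45), was 78.6 to 138 CPM in the sham hearts, 292 to 425 CPM at day 1 and 298 to 488 CPM at day 7, and 8 of 8 rose in both comparisons with sham. The 12 monocyte and macrophage markers summed to 322 to 497, 588 to 854 and 906 to 1403 CPM, with 9 and 11 of 12 higher than sham at day 1 and day 7. Neutrophil markers summed to 2.39 to 55.9 CPM in sham, at most 138 CPM at day 1 and 7.69 to 38.5 CPM at day 7. Of 7 tested, 3 were called higher than sham at day 1, and 1 higher and 1 lower at day 7. Between the infarcted groups 5 were lower at day 7 and 0 higher. Every marker of these lists had reads in each group. Among all genes, 22.0% were called higher than sham at day 1, and 30.9% higher and 28.4% lower at day 7. Between day 7 and day 1 AMI 24.2% were higher and 22.8% lower.

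Dendritic cell markers summed to 23.9 to 26.4 CPM in sham hearts, 23.4 to 24.9 CPM at day 1 and 31.7 to 39.2 CPM at day 7, and *Zbtb46*, at 17.7 to 28.2 CPM a heart, made up most of the sum. Of 7 tested, 3 were higher than sham at day 1 (*Flt3*, *Cd209a* and *Itgae*) and 1 lower (*Clec9a*), and at day 7 4 were higher and 0 lower. T cell markers went from at most 3.30 CPM in sham to 8.29 to 12.1 CPM in day 7 AMI, and B and plasma cell markers from at most 8.20 CPM to 9.83 to 13.5 CPM. Of those tested, 5 of 6 and 3 of 8 were called higher at day 7, the latter near the 30.9% of all genes. The shares of all genes were 22.0% higher and 19.9% lower at day 1, and 28.4% lower at day 7. Cardiomyocyte markers were lower, with 7 of 9 and 8 of 9 called lower than sham, and fibroblast markers higher, with 6 of 6 called at day 7. *Tnnc1* and *Ryr2* among the cardiomyocyte markers turned positive under other scalings, and so these counts hold for TMM.

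Set against the leukocyte sum of its own heart, *Irf5* was at 3.82 ± 0.70 CPM per 100 leukocyte CPM in the sham hearts, 3.94 ± 0.46 at day 1 and 3.40 ± 0.20 at day 7 (SD, n = 4), with overlapping ranges. *Irf7* was at 13.5 ± 3.42, 8.49 ± 1.62 and 13.5 ± 1.12 on this scale, and *Irf8* at 6.12 ± 1.65, 4.10 ± 0.44 and 5.20 ± 0.65. *Irf9* was at 19.9 ± 3.25 in sham, above every infarcted heart, and at 9.16 ± 1.13 and 9.85 ± 1.89 after infarction. Per 100 CPM of monocyte and macrophage markers, *Irf5* was at 1.03 ± 0.16, 1.95 ± 0.36 and 1.17 ± 0.12, and every day 1 heart then lay above the other groups. *Irf7* was at 3.64 ± 0.88, 4.18 ± 0.92 and 4.67 ± 0.63 by that measure, with overlap. These are descriptions, and the part of cell number in the rise of each gene was not tested.

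Among genes around the family, the interferons themselves lay near or under what these libraries can detect. None of 21 ligand genes passed the filter, and 19 of them in sham and 17 in each infarcted group had a count of 0 in every heart, where 3 counts of a library's total, 0.0933 to 0.129 CPM, is the level a count of 0 allows. *Ifnb1* had at most 2 counts in a heart. *Ifng* had 15 counts in day 7 AMI replicate 4, the heart highest in *Irf1*, and 0 to 3 counts elsewhere. In TPM it stood at 0.9 in that heart and at 1.05 in day 7 AMI replicate 2, which had 3 counts and the lowest *Irf1* of its group. The 2 units thus differ on the heart highest in *Ifng*. The level that a count of 0 allows covers counting error only. How reads shared by near-identical interferon alpha genes were counted is not given in the sources used here.

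Of 10 receptor, Janus kinase and STAT genes, 2 were higher and 3 lower than sham at day 1, and 6 higher and 3 lower at day 7, with a median log2 fold change of -0.02 and 0.30. *Ifnar1*, a chain of the type I interferon receptor, rose at both times (0.43 and 0.88). Beside these counts, 22.0% and 19.9% of all genes were higher and lower at day 1, and 30.9% and 28.4% at day 7. The 3 lower genes at both times were *Il10rb*, *Ifngr2* and *Jak1*. On library totals and on log2(TPM + 1) alike the list gave 5 higher and 1 lower at day 1, and 7 higher and 0 lower at day 7. *Ifngr2* and *Jak1* were then positive at day 7, and *Jak1* was called higher (0.22, edgeR adjusted p = 0.011, and 0.40, limma adjusted p = 0.00037). With a heart left out, 1 to 3 genes were lower at each time, and all 3 only without sham replicate 2.

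Of 20 tested sensors, adaptors and kinases that act upstream of *Irf3*, *Irf5* and *Irf7*, 13 were higher at day 1 and 14 at day 7, and 1 and 2 lower. The shares of all genes called higher were 22.0% and 30.9%, and those called lower 19.9% and 28.4%. *Ikbke*, the inducible kinase of *Irf3* and *Irf7*, rose 3.46-fold and 4.33-fold, from 1.91 ± 0.16 CPM among sham hearts to 8.29 ± 2.58 CPM at day 7 (SD, n = 4). The DNA sensor cGAS, listed as *Mb21d1*, rose 3.53-fold and 5.03-fold, and *Tlr9*, the endosomal DNA receptor, 2.64-fold and 5.83-fold. *Mavs*, the adaptor of RNA sensors, was lower (log2 fold change -0.29 and -0.48), but not on the log2(TPM + 1) scale (0.03 and 0.08). *Irak1* was the other gene lower at day 7 (-0.24), but on that scale it was called higher (0.47, limma adjusted p = 0.00013).

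The DNA-binding partners of the family gave 5 of 10 higher at day 1 and 6 of 10 at day 7, with 0 lower. *Spi1*, which encodes PU.1, the partner of *Irf4* and *Irf8*, rose 3.30-fold and 3.17-fold over sham and did not pass between day 1 and day 7 AMI (-0.06, adjusted p = 0.84). Among 9 brakes on the pathway, 4 were higher at each time and 1, *Irf2bp1*, lower at day 7 (-0.40, adjusted p = 0.0057). Beside the counts of partners and brakes, 22.0% and 30.9% of all genes were higher at day 1 and day 7, and 19.9% and 28.4% lower. *Usp18*, which blocks the type I receptor, climbed from 3.61 ± 1.04 CPM in the sham group to 6.92 ± 1.10 and 14.9 ± 2.02 CPM (SD, n = 4). On log2(TPM + 1) 7 brakes were higher at day 1, and 8 higher and 0 lower at day 7, while library totals gave 7 and 5 higher. RLE factors gave 4 higher at day 1 and 3 at day 7. With a heart left out, 3 to 4 brakes were higher at day 1 and 3 to 5 at day 7. At day 7 a count of 3 of 9 is near the 30.9% of all genes. *Socs3* was among those lower at day 7 than at day 1 (-1.58).

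Of 20 ISRE targets, genes of the kind that ISGF3 and *Irf7* activate, 11 were higher and 1 lower than sham at day 1, 19 higher at day 7, and 16 higher at day 7 than at day 1, with median log2 fold changes of 0.48, 1.57 and 0.94 beside -0.01, 0.03 and 0.02 for all genes. Without day 1 AMI replicate 2 the count at day 1 was 7 higher and 1 lower, and without sham replicate 2 it was 14 higher and 0 lower. Of all genes, 22.0% were higher and 19.9% lower than sham at day 1, and 30.9% were higher at day 7. Between day 7 and day 1 AMI 24.2% of all genes were higher. *Mx1*, an antiviral GTPase, was at 0.90 ± 0.50, 2.86 ± 0.31 and 6.56 ± 2.60 CPM, and *Ifit1*, a translation inhibitor, at 7.30 ± 1.81, 11.5 ± 1.68 and 28.7 ± 8.0 CPM (SD, n = 4). *Ifi44* averaged 3.34 CPM for sham and 3.38 CPM at day 1 and rose 3.35-fold from there to day 7. The gene lower at day 1 was *Rsad2* (-0.40, adjusted p = 0.0496), which lost its call without sham replicate 1 or 2 or day 1 AMI replicate 1, 3 or 4 (adjusted p from 0.078 to 0.18). *Isg15* did not pass in any comparison of all hearts, and its sham levels were 4.49, 16.55, 3.69 and 3.01 CPM in replicates 1 to 4. With sham replicate 2 left out, all 20 ISRE targets, *Isg15* among them, were called higher at day 7.

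Of 15 genes known as targets of *Irf1*, 7 were higher at day 1 and 14 at day 7 and 1 lower, where *Irf1* itself was called at day 7 alone. Beside these, 22.0% and 30.9% of all genes were higher, and 28.4% were lower at day 7. The day 1 count was 5 when any 1 sham heart, or day 1 AMI replicate 1 or 2, was left out. The chemokine gene *Cxcl10* rose 6.15-fold and 14.5-fold over sham, and *Ciita* and *Nlrc5*, the master regulators of MHC class II and class I genes, 5.63-fold and 4.10-fold at day 7. *Nlrc5* was at 14.0, 13.1, 14.0 and 42.1 CPM in day 7 AMI, and its log2 fold change over sham was 1.43 without replicate 4, against 2.04 with it. *Cxcl9* was not called at day 1 (-0.61, adjusted p = 0.32) and rose 5.54-fold from day 1 to day 7, when it was 9.71, 10.7, 10.7 and 33.9 CPM in replicates 1 to 4, and 3.53-fold without replicate 4. Without that heart the median of the list at day 7 was 0.99 in place of 1.39, with 13 higher and 1 lower. *Il15* was the gene lower at day 7 (-1.22).

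Of 12 genes under *Irf4*, *Irf5* and *Irf8*, 9 were tested. Of these, 6 were higher at day 1 and 7 at day 7, beside 22.0% and 30.9% of all genes. *Cybb*, the phagocyte oxidase subunit that *Irf8* and PU.1 activate, stood at 11.8 ± 0.84 CPM after sham surgery, 20.3 ± 3.74 CPM at day 1 and 49.1 ± 15.5 CPM at day 7 (SD, n = 4). *Arg1*, an arginase of alternatively activated macrophages, had 0, 0, 1 and 0 counts in sham, 608 to 2976 in day 1 AMI and 10 to 221 in day 7 AMI. *Chil3* was at 37.8 ± 26.7 CPM at day 1 against 1.42 ± 1.19 CPM after sham surgery and 1.74 ± 1.08 CPM at day 7. *Retnla*, of the same macrophage programme, was the gene lower than sham at both times (-1.13 and -1.36), beside 19.9% and 28.4% of all genes. The lists were drawn up with earlier results of these data known, and genes named only to spell out a count of 5 or fewer were chosen after their values were seen.

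**Figure D5:**
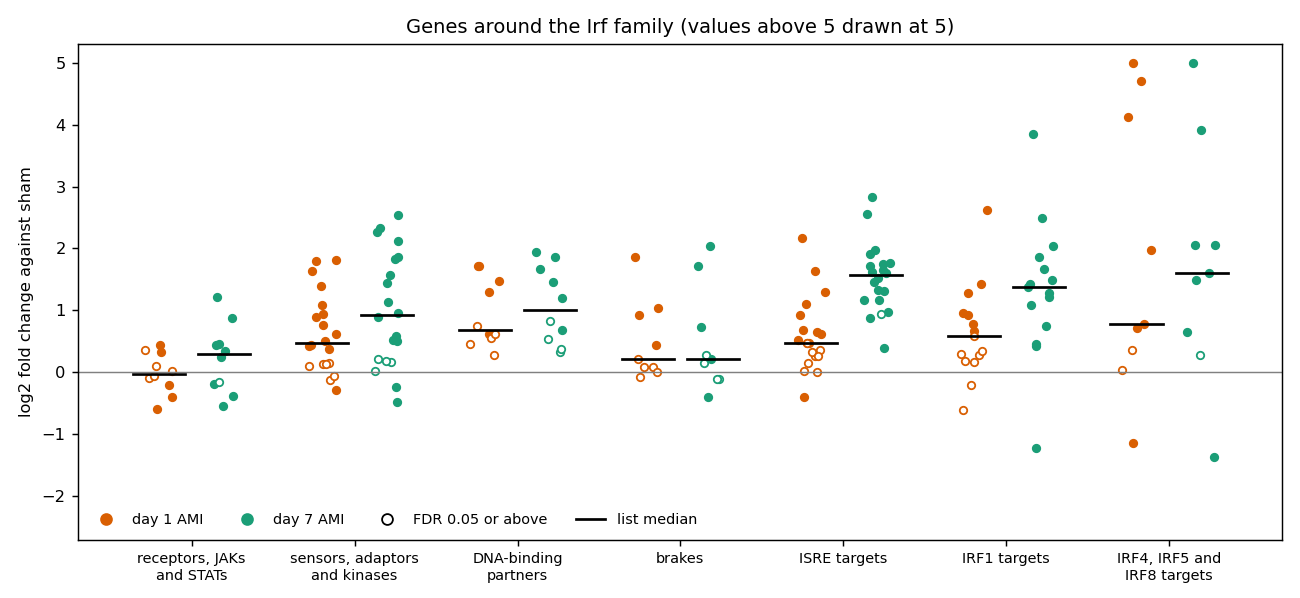
Log2 fold change against sham of each tested gene in 7 lists around the *Irf* family, in day 1 AMI and day 7 AMI, filled where the FDR is below 0.05, with the list median as a line and values above 5 drawn at 5. The median of the ISRE targets is 0.48 at day 1 and 1.57 at day 7, and that of receptors, Janus kinases and STATs is -0.02 and 0.30.

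The tested genes whose courses over the 12 hearts lay nearest to those of the 3 DEGs were found by the root mean square difference in centred log2 CPM. For *Irf5* they were *Sh3bp2* (0.15) and *Ptpn6* (0.17), for *Irf8* *Inpp5d* (0.14) and *Nfkbiz* (0.14), and for *Irf7* *Tcirg1* (0.18) and *Trim46* (0.20), among 15298 genes compared. *Ptpn6* and *Inpp5d* encode phosphatases of blood cells, and *Tcirg1* a proton pump subunit.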

How the data were processed

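RNA-Seq of 12 whole mouse hearts was used, 4 a group by their labels. Reads were paired-end. Per the labels and the study's methods, they were cleaned by Cutadapt, mapped by STAR 2.4.0j to GRCm38 and quantified by RSEM. The authors deposited raw counts per gene, which were tested as deposited, and TPM from RSEM, used for levels across genes. The counting tool and strand of the counts are not given in the sources used here. Lowest and highest depths were 23204551 and 32166517 counts, and floors of 3 counts cover counting error only.

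Differential expression used edgeR 4.0.16 in R 4.3.3, with TMM, filterByExpr and a quasi-likelihood fit of 3 groups, and Benjamini-Hochberg FDR over 15306 genes. Ratios of counts (pseudocount 0.5) were compared by exact two-sided permutation in Python 3.11.15. Alternatives were RLE factors, library totals alone, no filter, DESeq2 1.42.0, only the groups compared, limma 3.58.1 on log2(TPM + 1) and log2(TPM + 0.1) for genes that reach 1 TPM in 4 hearts or more, a replicate block, and each heart left out. The code was tested on simulated data. No libraries repeated one another (chi-square per degree of freedom at least 9.25). The labels do not tie hearts of the same number together, and hearts are different mice.

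The members and lists were chosen with earlier results of these data known. Named genes were the 8 *Irf* members, ligands and receptors where described, up to 4 called genes of largest change per other list and comparison, and the 2 genes nearest to each *Irf* DEG. Promoter sequences are from RefSeq (GRCm38.p6) and exon overlaps from GENCODE M21. Some genes are not reported here.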

Additional observations from a re-analysis of the deposited data

Results flagged for a closer look

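In 36 groups of 4 hearts, 3 held a heart far from the others by Dixon's criterion, and chance gives about 1 such group in 20. *Irf5* in sham replicate 4 was 3.11 CPM, with the gap to the nearest heart 0.925 of the group's range. In day 1 AMI replicate 2, the ratio of *Irf8* to *Irf4* was 18.2 (gap 0.909 of the range) and the ratio of *Irf5* to *Irf4* was 18.4 (gap 0.88 of the range). The ratios share *Irf4* as their denominator.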

How the results depend on the processing

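Over the 24 log2 fold changes of *Irf* genes, 160 of 186 values under other settings and 176 of 192 with a heart left out kept their direction and their side of the threshold. The settings with another scaling or unit moved the counts of *Irf* genes most. Library totals alone, limma on log2(TPM + 1) and on log2(TPM + 0.1) each gave 7 *Irf* genes called at day 1 and 1 DEG between day 7 and day 1 AMI, and the last gave 5 DEGs at day 7. In these settings the median gene was 0.26, 0.28 and 0.32 above sham at day 1 and 0.43, 0.48 and 0.55 at day 7, and 85.6%, 89.5% and 89.6% of genes called at day 1 were higher, against 52.5%. At day 7 these shares were 83.2%, 89.7% and 89.7% against 52.1%, and between day 7 and day 1 they were 68.8%, 79.3% and 79.4% against 51.4%. On log2(TPM + 1) all genes gave 1021 DEGs at day 1 and 1018 between day 7 and day 1, against 1648 and 1719. Signs turned on library totals for *Irf4* at day 1 (0.095), *Irf3* at day 7 (0.29) and *Irf5* between day 7 and day 1 (0.13). They turned on log2(TPM + 1) for *Irf3* at day 7 (0.59) and between days (0.20) and *Irf5* between days (0.15), and on log2(TPM + 0.1) for the same (0.60, 0.20 and 0.16). On log2(TPM + 0.1) the *Irf1* to *Irf2* ratio between days turned to 0.010. None of these was called in its comparison as reported, and *Irf3* at day 7 was called on both TPM scales. The day 7 call of *Irf1* was also lost with RLE factors (adjusted p = 0.054) and on only the groups compared (0.072), and that of *Irf2* between days with no filter (0.059). Calls gained include *Irf4* at day 7 on library totals (0.67, adjusted p = 0.026) and *Irf9* between days on log2(TPM + 1) (0.58, adjusted p = 0.030) and log2(TPM + 0.1) (0.60, adjusted p = 0.034). The TPM settings change the unit, filter and test as well as the scaling. The cause was not tested.

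Leaving out a heart gave 1 to 3 *Irf* DEGs at day 1, 1 to 3 *Irf* genes called and 0 to 1 DEGs between days (*Irf7*, at 1.02 without day 7 AMI replicate 3), and log2 fold changes of -0.0081 to 0.10 (*Irf2*, day 1), -0.0057 to 0.14 (*Irf3*, day 1), -0.11 to 0.30 (*Irf1*, between days) and -0.14 to 0.19 (*Irf5*, between days). Ratios, in log2, ranged from 0.69 to 1.12, 1.75 to 2.18 and 0.86 to 1.20 (*Irf7* to *Irf3*, in the order day 1, day 7 and between days), 1.02 to 1.44, 1.25 to 1.53 and -0.017 to 0.38 (*Irf8* to *Irf4*), 1.60 to 2.05 and 1.35 to 1.60 (*Irf5* to *Irf4*, against sham) and -0.074 to 0.25 (*Irf1* to *Irf2*, day 7). With 3 hearts against 4 the exact test cannot pass after adjustment (at least 0.086).

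The replicate numbers do not pair hearts, with 4 of 12 same-number correlations over 0.1 and 2 of 12 hearts closest to their own number. With a replicate block *Irf1* at day 7 lost its call (0.47, adjusted p = 0.052) and *Irf5* between days, never called, turned to 0.0064, and no other *Irf* call changed.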
